A study of Mus musculus with 6 samples.

Results

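Kinetochores are the protein assemblies that join chromosomes to spindle microtubules, and the mRNAs of 10 of their components were followed in mouse oocytes. The 10 genes were Cenpa, Cenph, Dsn1, Mis12, Ndc80, Nuf2, Spc24, Spc25, Cenpe and Cenpf, taken by symbol from the deposited expression table. All 10 were found among its 24255 genes, and 10 of 10 were among the 6398 genes that were tested, those at 1 FPKM or more in any library. FPKM counts fragments relative to transcript length and library size, so levels of different genes can be set beside each other on this scale.

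The RNA-Seq libraries came from fully-grown oocytes (FGOs) at the germinal vesicle stage, when the oocyte has finished growing and rests in prophase of the first meiosis. Of the 6 libraries, 3 were from wild type (WT) and 3 from Lsm14b-KO females, and each held the RNA of 20 oocytes, amplified by Smart-seq2 according to the labels, which differ on the kit used to make the libraries. The KO females were, per the study's methods, homozygous for Lsm14b tm1a, a knockout-first allele with an inserted reporter cassette, on a C57BL/6J background. LSM14B is an RNA-binding protein of oocytes. Females of both genotypes had received 5 IU of PMSG, a gonadotropin that drives follicle growth, 46 h before collection. The allele is constitutive, so all cells of the animal carry it, and the age of these females is not given in the sources used here. No source says that the 3 libraries of a genotype came from separate animals, so the p-values measure the spread between these libraries, which may be partly technical.

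The centromere is marked by nucleosomes that hold CENP-A, a variant of histone H3, and on them sits the constitutive centromere-associated network (CCAN), to which CENP-H belongs. The MIS12 complex links this inner layer to the NDC80 complex, a rod of 4 subunits whose outer end binds the microtubule. CENP-E, a motor of the kinesin family, and CENP-F, a long coiled-coil protein, join the outermost layer, the fibrous corona. A fully-grown oocyte makes little new RNA and divides with the mRNAs it has stored, and these transcripts are among them. Proteins already made are not seen in these data.

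The cell cycle gene homology region (CHR) and the CCAAT box are promoter motifs found before many cell cycle genes, and both were searched for here. The promoters shown are those of the 5 members with a CHR-like motif, from 100 bases before to 50 bases after the RefSeq start (GRCm38.p6), 5′ to 3′ on the strand of the gene, with TTTGAA or TTTAAA and the reverse complement TTCAAA in capitals.
Cenpa: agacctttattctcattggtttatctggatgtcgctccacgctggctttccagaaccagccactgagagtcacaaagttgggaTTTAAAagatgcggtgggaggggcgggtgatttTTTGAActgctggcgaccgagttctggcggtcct
Cenpe: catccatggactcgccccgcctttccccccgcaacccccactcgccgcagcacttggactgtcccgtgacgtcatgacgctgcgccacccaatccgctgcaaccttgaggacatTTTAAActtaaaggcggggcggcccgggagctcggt
Cenpf: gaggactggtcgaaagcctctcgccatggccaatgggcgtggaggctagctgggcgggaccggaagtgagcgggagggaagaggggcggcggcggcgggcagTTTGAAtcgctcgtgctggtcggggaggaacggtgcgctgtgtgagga
Ndc80: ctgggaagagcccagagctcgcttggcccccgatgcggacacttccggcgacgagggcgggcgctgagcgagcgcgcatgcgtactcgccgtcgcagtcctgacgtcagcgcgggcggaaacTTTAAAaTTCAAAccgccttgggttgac
Spc25: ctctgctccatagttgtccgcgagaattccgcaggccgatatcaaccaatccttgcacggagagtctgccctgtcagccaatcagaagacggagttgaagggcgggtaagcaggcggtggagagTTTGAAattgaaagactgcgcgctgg

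These promoters lie at chr5:30666786-30666935 for Cenpa and chr3:135212463-135212612 for Cenpe, both on the plus strand. Those of Cenpf, Ndc80 and Spc25 lie on the minus strand at chr1:189688037-189688186, chr17:71526808-71526957 and chr2:69206164-69206313. Positions count the first base at the RefSeq start as +1. The motif began at -17 and +17 in Cenpa, +15 in Cenpe, +3 in Cenpf, +23 and +30 in Ndc80 and +25 in Spc25. GENCODE, used for the gene coordinates below, begins Cenpa further upstream, at 30666777. The whole Cenpa stretch lies inside that gene. GENCODE also begins Cenpe at 135212537, upstream of its RefSeq start, and Spc25 at 69206194, downstream of its RefSeq start. The motif positions in Cenpa, Cenpe and Spc25 thus depend on the annotation. A promoter entry was found for 9 of the 10 members, all but Spc24, and 5 of these 9 held the motif on either strand, against 12.8% of 32851 mouse promoters of the same length. TTTAAA reads the same on both strands. A CCAAT box (CCAAT, or ATTGG on the other strand, from 250 bases before to 50 after the start) was present in 6 of the 9 and in 37.4% of all promoters. Among the 31 other kinetochore and centromere genes listed for comparison, 27 had an entry, of which 10 held the CHR-like motif and 17 the CCAAT box. A match is a stretch of letters and not a measured binding site. Of the 5 genes printed, Cenpa passed the expression test described next and the other 4 did not.

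The libraries differed in more than genotype. Lsm14b itself was at 2.77, 3.98 and 1.72 FPKM in WT replicates 1, 2 and 3 and at 0, 0 and 0.10 FPKM in KO replicates 1, 2 and 3 (adjusted p = 0.0038 by limma), below every WT library. The summed FPKM was 1141324 to 1244182 in WT and 564671 to 1029728 in Lsm14b-KO. Relative depth, estimated from the lowest FPKM values with WT replicate 1 at 1, was 1 to 1.14 in WT and 1.33 to 2.17 in Lsm14b-KO. Without counts, this estimate cannot separate deeper sequencing from scaling of the deposited values. Among the KO libraries, replicate 1 stood nearer to WT (Pearson's r of log2 values across genes 0.952 to 0.954) than replicate 2 (0.867 to 0.890) or replicate 3 (0.917 to 0.929). Of 12 oocyte markers, 12 reached 1 FPKM in both groups, and their sum was 9231 to 10255 FPKM in WT and 11205 to 11373 FPKM in Lsm14b-KO. Of 14 cumulus and granulosa markers, 3 reached 1 FPKM, 5 (Amh, Foxl2, Inhba, Lhcgr and Tnfaip6) were at 0 in every library, and the sum was 9.50 to 13.5 FPKM in WT and 5.68 to 9.90 FPKM in Lsm14b-KO. All 7 red blood cell markers in the table were at 0. The depth estimate and the oocyte marker sum were thus higher in every KO library than in any WT library, and the granulosa marker sums overlapped. Most markers did not follow the oocyte sum, to which Ooep and Gdf9 gave the most. Ooep was at 6144 to 7155 FPKM in WT and 3987 to 9390 FPKM in KO, and Gdf9 at 1167 to 2403 and 914 to 3561 FPKM. Kit and Nobox were the only oocyte markers higher in every KO library than in any WT library. Dazl, an RNA-binding protein of germ cells, was at 128 to 155 FPKM in WT and 34.4 to 57.2 FPKM in KO. Of the granulosa markers, the aromatase Cyp19a1 was at 8.26 to 11.5 FPKM in WT and 3.00 to 5.76 FPKM in KO, whereas the FSH receptor Fshr was at 0.349 to 1.68 FPKM in WT and 1.82 to 2.07 FPKM in KO. The part of these differences in the results was not tested. Each library held 20 oocytes. For any other cells in these bulk samples, whose number is not given, fewer cells and less RNA per cell cannot be told apart.

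Of the 10 kinetochore and centromere mRNAs, 2 fell in Lsm14b-KO FGOs, Cenpa and Cenph, which both encode proteins of the inner kinetochore. None rose, and 8 did not pass the threshold, an adjusted p under 0.05 from limma's test on log2(FPKM + 1). Among all 6398 tested genes, 21.6% passed, 6.38% higher and 15.2% lower in Lsm14b-KO, so 2 of 10 is near the share of genes in general. The balance of these calls depended on the scaling, with 408 higher and 975 lower as reported and 833 higher and 486 lower after scaling to TPM. In 5 of the 10 the WT and Lsm14b-KO libraries did not overlap, 2 higher and 3 lower, as in 45.0% of all tested genes. These 5, Cenpa, Cenph, Cenpe, Cenpf and Mis12, were also the members with an unadjusted p under 0.05, 2 of them above 0, and 39.4% of all tested genes had one. The median log2 fold change of the 10 was -0.45, and that of all tested genes was -0.08. Both signs turned with the scaling, to 0.14 and 0.40 after TPM scaling and to 0.10 and 0.07 after quantile normalization.

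**Figure D1:**
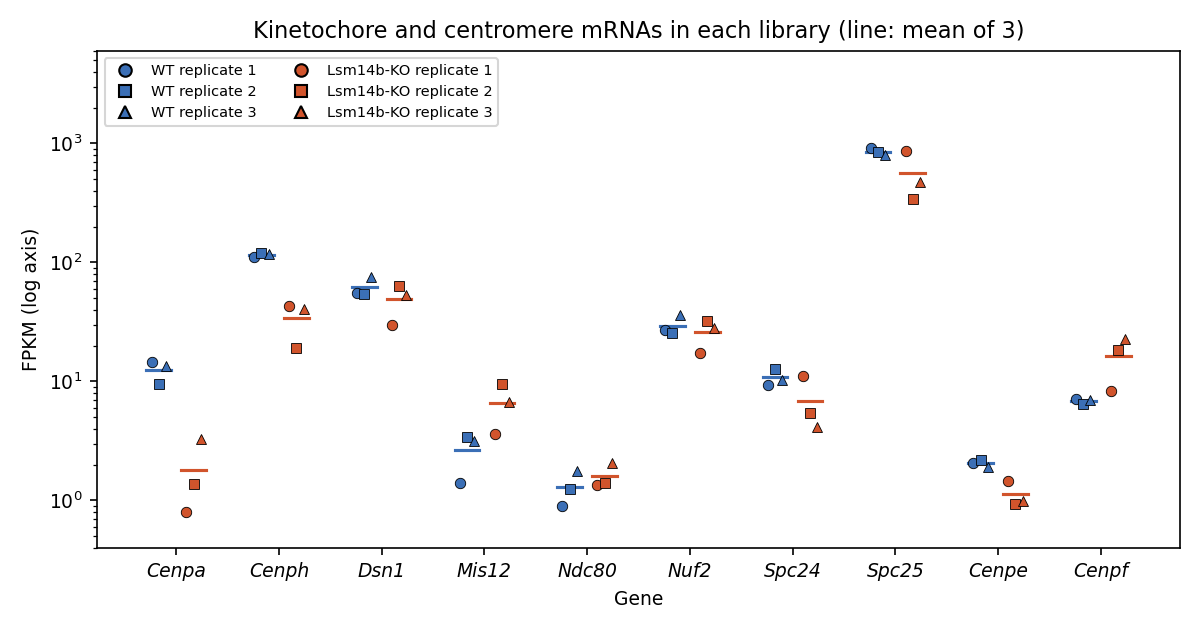
FPKM (log axis) of the 10 genes in each library, WT in blue and Lsm14b-KO in orange, with the marker shape giving the replicate and a line at the mean of 3. Cenpa and Cenph are lower in all 3 Lsm14b-KO libraries. Without passing the test, Cenpe also lies lower in all 3, and Cenpf and Mis12 lie higher. Spc25 is the most abundant throughout.

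Cenpa, the histone variant that defines the centromere (chromosome 5, 30666777 to 30674830, GRCm38), was the member with the largest fitted fold change. It was at 14.5, 9.54 and 13.4 FPKM in WT replicates 1, 2 and 3 and at 0.798, 1.37 and 3.29 FPKM in KO replicates 1, 2 and 3. All 3 KO values lay below the lowest WT value, and the KO libraries spread more widely, by 4.12-fold from lowest to highest against 1.52-fold in WT. WT averaged 12.5 ± 2.59 FPKM and Lsm14b-KO 1.82 ± 1.30 FPKM (mean ± SD, n = 3 each), a 6.85-fold difference of means. On the log2(FPKM + 1) scale Cenpa fell by 2.33 (SE 0.34, adjusted p = 0.00484 by limma), and this scale understates the change of genes at such low levels. It remained past the threshold under all 16 alternatives run, with log2 fold changes from -2.99 to -1.79.

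Cenph, a CCAN subunit (chromosome 13, 100759674 to 100775899), was at 110, 120 and 118 FPKM in WT and at 42.7, 19.1 and 40.4 FPKM in Lsm14b-KO. The WT libraries were within 1.09-fold of each other, and the highest KO value was well below the lowest of them. WT averaged 116 ± 5.24 FPKM and Lsm14b-KO 34.1 ± 12.99 FPKM (mean ± SD, n = 3 each). Cenph fell by 1.82 on the log2 scale (SE 0.36, adjusted p = 0.0137 by limma). This call held under 12 of 16 alternatives, among them without Lsm14b-KO replicate 1 or 2, whereas leaving out any single WT library or Lsm14b-KO replicate 3 gave adjusted p-values of 0.0524 to 0.0692 by limma with the fold change between -1.98 and -1.80. Over all 16 alternatives the fold change ran from -2.02 to -1.14, the smallest being -1.14 after scaling to TPM, -1.23 after the length and GC correction and -1.31 after quantile normalization, each past the threshold. A gene on the opposite strand, Gm16335, overlaps Cenph, and no source states whether the libraries kept strand.

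The MIS12 complex was represented by Dsn1 and Mis12, which bridge the CCAN and the outer kinetochore. Mis12, which gives the complex its name (chromosome 11, 71019611 to 71027371), was at 1.41, 3.45 and 3.13 FPKM in WT and at 3.64, 9.53 and 6.71 FPKM in Lsm14b-KO. Every KO value was above every WT value, but the gap between the groups was small beside the spread within each. The fitted log2 fold change, 1.03 with an SE of 0.36, had an adjusted p of 0.0762 by limma. Mis12 overlaps Derl2 on the opposite strand and shares a deposited locus with it, so its reads may not be separable from that gene. Derl2 was at 0.791 to 1.26 FPKM in WT and 0.780 to 0.955 FPKM in Lsm14b-KO.

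Dsn1 (chromosome 2, 156995265 to 157007154) was at 55.9, 54.0 and 75.0 FPKM in WT and at 29.9, 63.6 and 53.6 FPKM in Lsm14b-KO. Lsm14b-KO replicate 1 was the lowest of the 6 libraries while replicate 2 lay within the WT range, so the groups overlapped. The log2 fold change was -0.37 with a 95% confidence interval from -1.19 to 0.44 (adjusted p = 0.441 by limma), and it was 0.31 after scaling to TPM and 0.19 after quantile normalization.

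No subunit of the NDC80 complex, which holds the kinetochore to the microtubule, passed the threshold. Spc25 (chromosome 2, 69193895 to 69206194), which with Spc24 forms the inner end of the rod, was at 920, 846 and 793 FPKM in WT and at 870, 338 and 477 FPKM in Lsm14b-KO. Lsm14b-KO replicate 1 lay within the WT range, and replicates 2 and 3 were below it. The fitted log2 fold change, -0.71 with an SE of 0.39, had an adjusted p of 0.199 by limma. After quantile normalization the fold change was 0.02.

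Spc24 (chromosome 9, 21755442 to 21760303) was far less abundant, at 9.35, 12.8 and 10.3 FPKM in WT and at 11.2, 5.39 and 4.15 FPKM in Lsm14b-KO. Again replicate 1 of the KO group lay among the WT values and the other two lay below them. Its fitted log2 fold change, -0.67 with an SE of 0.34, had an adjusted p of 0.178 by limma. It was -0.07 after scaling to TPM, -0.44 after quantile normalization and -0.32 after the length and GC correction.

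Nuf2 and Ndc80 form the microtubule-binding end of the rod. Nuf2 (chromosome 1, 169497934 to 169531464) was at 26.9, 25.6 and 35.8 FPKM in WT and at 17.5, 32.0 and 28.0 FPKM in Lsm14b-KO. Only replicate 1 of the KO group was below the WT range. The log2 fold change was -0.21 with a 95% confidence interval from -0.94 to 0.52 (adjusted p = 0.627 by limma), and its sign turned after scaling to TPM, to 0.46, after quantile normalization, to 0.23, after a correction for transcript length and GC content, to 0.03, and without Lsm14b-KO replicate 1, to 0.04.

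Ndc80 (chromosome 17, 71496100 to 71526857) was the least abundant member in WT, at 0.907, 1.25 and 1.76 FPKM, and was at 1.36, 1.40 and 2.08 FPKM in Lsm14b-KO. The groups overlapped, and the log2 fold change was 0.19 with a 95% confidence interval from -0.32 to 0.70 (adjusted p = 0.538 by limma). The transcripts 2700099C18Rik and Gm47120 match Ndc80 at 95% identity or more over at least 200 bases, so its level is uncertain. 2700099C18Rik was at 3.75, 2.82 and 1.20 FPKM in WT and at 4.47, 1.02 and 1.14 FPKM in Lsm14b-KO, above Ndc80 in 3 of the 6 libraries. Gm23115 also overlaps Ndc80 on the same strand.

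Although the 4 proteins are built into the rod in equal number, their mRNAs were far from equal. Spc25 made up 89.7% to 96.7% of the summed FPKM of the 4 genes in every library, and Ndc80 made up 0.0947% to 0.407%. The log2 ratio of Spc25 to Ndc80 was 8.92, 8.56 and 8.17 in WT and 8.53, 7.14 and 7.28 in Lsm14b-KO, where only replicate 1 reached the WT range. The log2 ratio of Spc25 to Spc24, the pair at the inner end of the rod, was 6.48, 5.94 and 6.13 in WT and 6.16, 5.73 and 6.53 in Lsm14b-KO. For all 6 pairs of subunits the WT and KO ratios overlapped, and an exact permutation test of each gave two-sided p-values from 0.2 to 1 (0.6 to 1 after adjustment over the 6 pairs), where 3 against 3 libraries cannot give less than 0.1. A ratio within a library depends on the scaling between libraries only through the pseudocount of 1, and the ratios to Ndc80 share the uncertainty of its level.

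**Figure D2:**
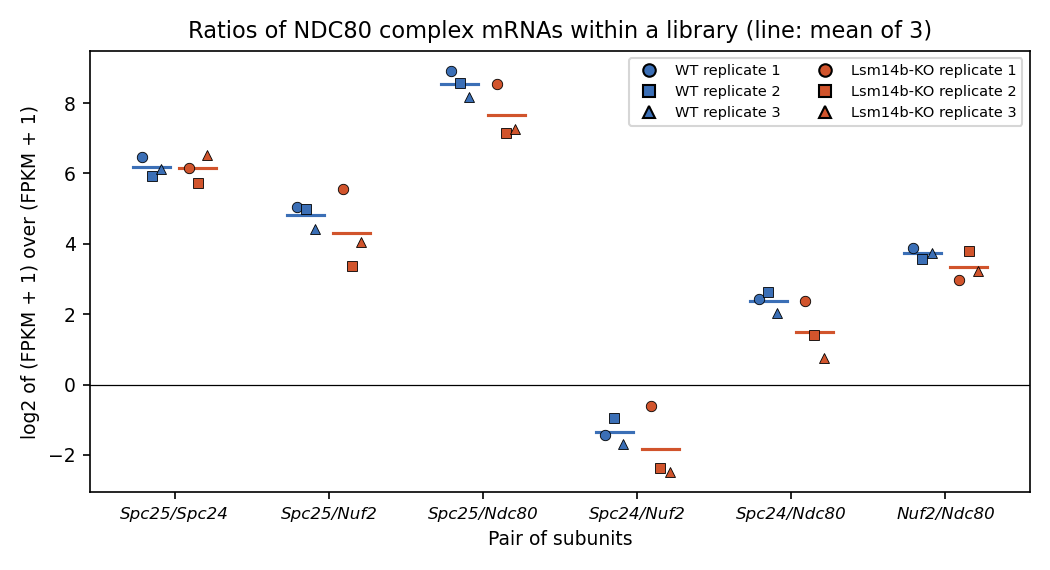
Log2 ratio of (FPKM + 1) for each pair of NDC80 complex mRNAs in each library, WT in blue and Lsm14b-KO in orange, with the marker shape giving the replicate and a line at the mean of 3. The 2 groups overlap for every pair, and Spc25 exceeds each partner in every library.

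Of the corona genes, Cenpf had a fitted fold change above 0 and Cenpe below it, and neither passed the threshold. Cenpf (chromosome 1, 189640606 to 189688086), whose coiled-coil protein binds microtubules and accumulates before cell division, was at 7.08, 6.40 and 7.01 FPKM in WT and at 8.31, 18.3 and 22.6 FPKM in Lsm14b-KO. Replicate 1 of the KO group was just above the highest WT library, and replicates 2 and 3 were far above it. The fitted log2 fold change, 1.05 with an SE of 0.36, had an adjusted p of 0.0694 by limma. Gm37239 overlaps Cenpf on the opposite strand.

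Cenpe, the kinesin motor (chromosome 3, 135212537 to 135273611), was at 2.05, 2.18 and 1.90 FPKM in WT and at 1.45, 0.936 and 0.995 FPKM in Lsm14b-KO. All KO values were below all WT values, at a low level. The fitted log2 fold change, -0.53 with an SE of 0.19, had an adjusted p of 0.0815 by limma. After scaling to TPM it was -0.12 (adjusted p = 0.697 by limma).

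Levels in WT ran over a wide range, from Spc25 down through Cenph, Dsn1, Nuf2, Cenpa, Spc24, Cenpf, Mis12, Cenpe and Ndc80. Spc25, with a WT mean of 853 FPKM, ranked 200 of 6398 tested genes by WT mean, and Ndc80, with 1.30 FPKM, ranked 4372. Neighbours in this order were separate in all 3 WT libraries except for Cenpa and Spc24, and Mis12 and Cenpe, whose values overlapped. In Lsm14b-KO the order by mean was Spc25, Dsn1, Cenph, Nuf2, Cenpf, Spc24, Mis12, Cenpa, Ndc80 and Cenpe, and only Spc25 from Dsn1 and Mis12 from Cenpa were separate. Cenpa thus went from the fifth place to the eighth.

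Leaving out Lsm14b-KO replicate 1, the KO library nearest to WT, brought the members past the threshold from 2 to 7, with Cenpe, Spc24 and Spc25 lower and Cenpf and Mis12 higher in addition to Cenpa and Cenph. The count over all genes moved from 1383 to 2898 at the same time. Without any single WT library or without Lsm14b-KO replicate 3, the member past the threshold was Cenpa alone.

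**Figure D3:**
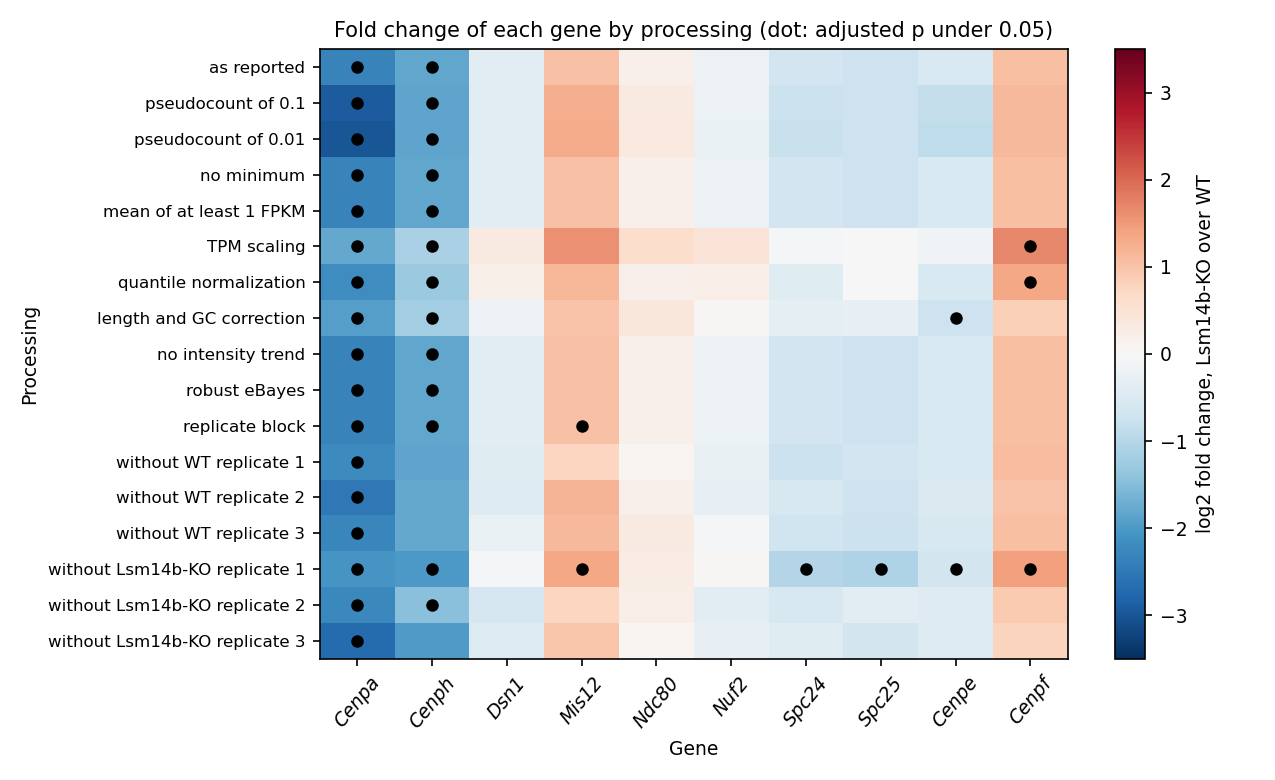
Fitted log2 fold change of the 10 genes (colour) as reported and under 16 alternatives (rows), with a dot where the adjusted p was under 0.05. The Cenpa column has a dot in every row, and the row without Lsm14b-KO replicate 1 has 7 dots.

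Of the 31 other kinetochore and centromere genes, 25 were tested, and of these 1 rose, 2 fell and 22 did not pass. The share that passed was 12%, beside 21.6% of all tested genes. The median log2 fold change of the 25 was 0.14. Without Lsm14b-KO replicate 1, 13 of the 25 passed, beside 2898 of all 6398 tested genes. The 6 under 1 FPKM in every library were Cenpb, Cenpi, Itgb3bp, Hjurp, Nsl1 and Kntc1. Among the CCAN and related centromere genes, 13 of 16 were tested, and the one that passed was Cenps, listed as Apitd1, at 954, 991 and 937 FPKM in WT and 434, 146 and 241 FPKM in Lsm14b-KO. This histone-fold protein of the network fell by 1.95 on the log2 scale (adjusted p = 0.0172 by limma), a call that was lost (adjusted p 0.0731 to 0.0841 by limma) without any single WT library or Lsm14b-KO replicate 3.

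Mis18a, which prepares the centromere for new CENP-A, was the gene of the CENP-A loading list that passed, of 3 tested out of 4. It was at 76.0, 82.4 and 97.5 FPKM in WT and at 11.3, 14.2 and 12.8 FPKM in Lsm14b-KO. The KO libraries were close to each other and all far below WT. Mis18a fell by 2.64 on the log2 scale (SE 0.26, adjusted p = 0.00121 by limma) and was past the threshold in all 16 alternatives. Hjurp, the chaperone that deposits CENP-A, was not tested and is named after its values were seen. It was at 0 in WT replicates 1 and 2 and 0.019 FPKM in replicate 3, and reached at most 0.351 FPKM in Lsm14b-KO.

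Ska3, a subunit of the SKA complex that helps NDC80 hold microtubules, was the other gene that passed and the one that rose, at 2.53, 4.75 and 3.06 FPKM in WT and at 6.63, 21.0 and 13.3 FPKM in Lsm14b-KO. Its fitted log2 fold change, 1.62 with an SE of 0.40, had an adjusted p of 0.0272 by limma. Sap18 overlaps Ska3 on the opposite strand, so their reads may not be separable. The call was lost with no minimum on FPKM (adjusted p = 0.0721 by limma) and in 5 of the 6 fits without a library. Of the outer kinetochore list, 3 of 4 were tested and none passed limma's test. Its most abundant gene, Zwint, which recruits the RZZ complex, was fitted at 0.24 on the log2 scale (adjusted p = 0.497 by limma). Knl1, listed as Casc5 and named after its values were seen, was at 0.441, 0.352 and 0.546 FPKM in WT. In Lsm14b-KO it was at 0.725, 2.49 and 2.57 FPKM, so it was tested only through the group where it is higher.

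**Figure D4:**
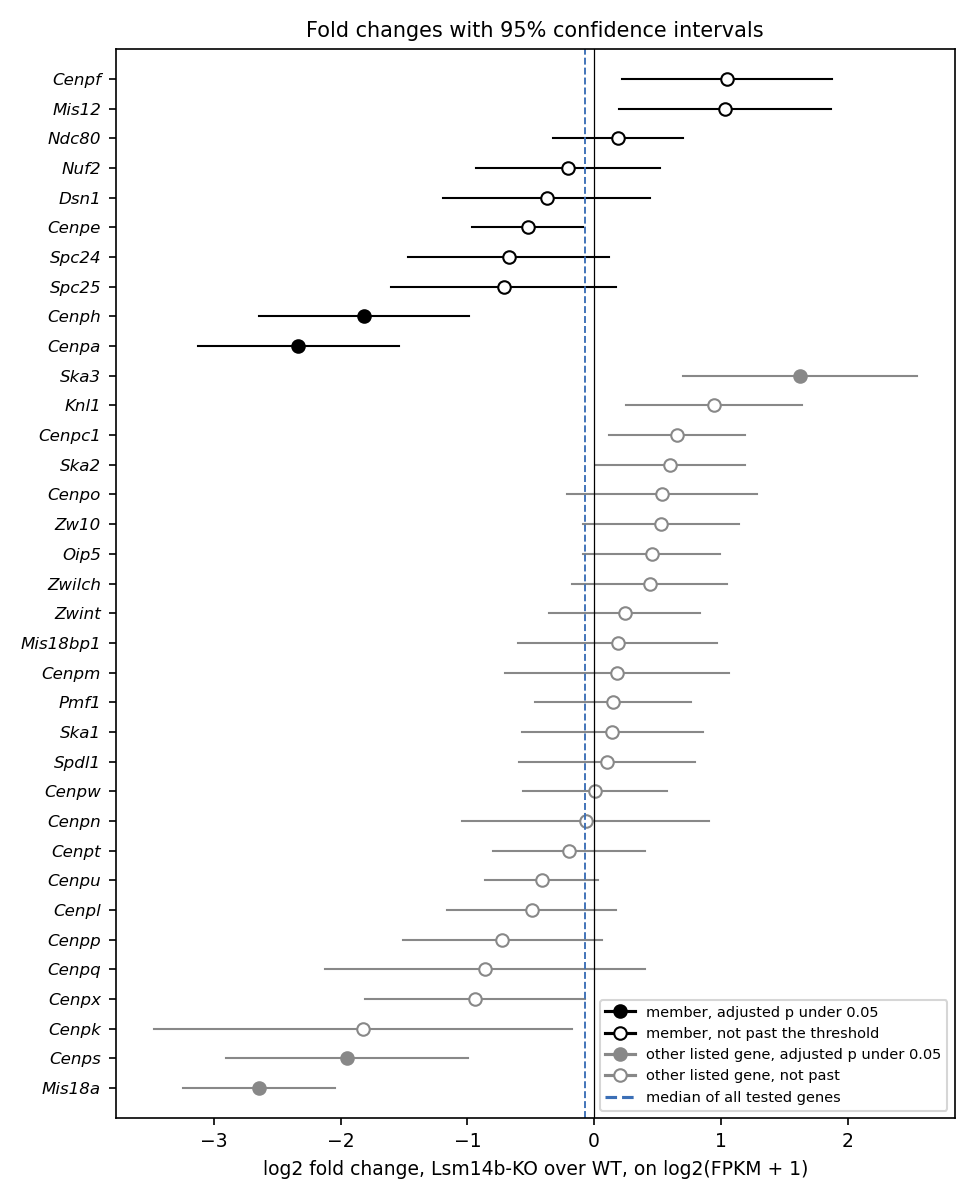
Fitted log2 fold change on log2(FPKM + 1), Lsm14b-KO over WT, with 95% confidence intervals for the 10 members (black) and the 25 other tested genes (grey), filled where the adjusted p was under 0.05. Cenpa and Cenph are the filled members, Mis18a, Cenps and Ska3 the filled others, and the dashed line marks the median of all tested genes, -0.08.

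Fold changes differed with transcript length in these libraries. The median over all tested genes was -0.62 for transcripts under 1000 bases, -0.32 from 1000 to under 2000, 0.12 from 2000 to under 4000 and 0.29 for 4000 or more. The listed genes, members included, had medians of -0.69 over 16 transcripts of 1000 to under 2000 bases, 0.24 over 13 of 2000 to under 4000 and 0.54 over 5 of 4000 or more. Cenph, at 1251 bases, and Cenpa, at 1466, belong to the second class, and Cenpf, at 11130, to the last, but so does Cenpe at 7910. After a correction for length and GC content within each library Cenpa and Cenph remained past the threshold, Cenpe also passed it with a log2 fold change of -0.73 (adjusted p = 0.0466 by limma), and the members past it numbered 3. Relative to the median of all genes under that correction, Cenpa was at -2.03 and Cenph at -1.33. The part of length in the fold changes was not tested further.

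**Figure D5:**
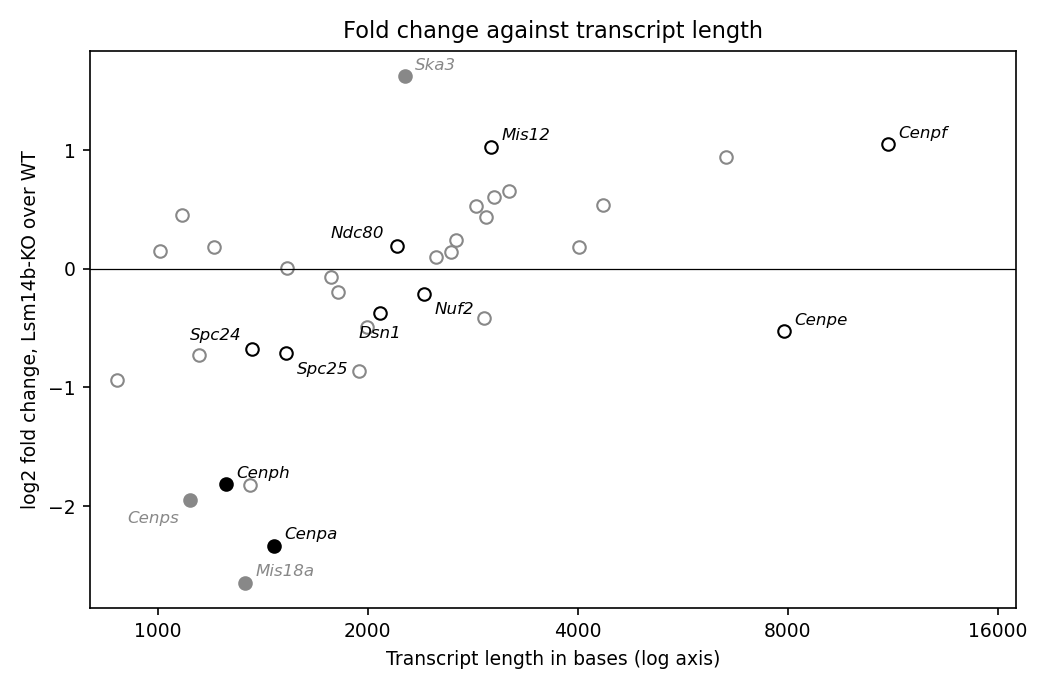
Log2 fold change, Lsm14b-KO over WT, against transcript length in bases (log axis) for the members (black) and the other tested genes of the list (grey), filled where the adjusted p was under 0.05. Shorter transcripts lie mostly below 0 and longer ones mostly above it, with Cenpe among the exceptions.

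The median of all genes moved with the scaling between libraries. Scaling to TPM raised the median of all genes by 0.48 on the log2 scale, quantile normalization raised it by 0.14, and the length and GC correction raised it by 0.18. Relative to the median of all genes, Cenpa was at -2.26 as reported, -2.19 after TPM scaling and -2.25 after quantile normalization, and Cenph was at -1.74, -1.54 and -1.38. Cenpf was at 1.12, 1.29 and 1.28 on the same footing and passed the threshold after TPM scaling (adjusted p = 0.0476 by limma) and quantile normalization (adjusted p = 0.0493 by limma). Nuf2, at -0.13, was at 0.06 and 0.16, so its sign depended on the scaling.

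Of the 10 members' transcripts, 9 had a poly(A) signal (AATAAA or ATTAAA, transcript strand) in their last 100 bases, and 79.9% of tested genes with a transcript did. The member without this signal was Cenpe. Cenpe, Cenph and Ndc80 had a cytoplasmic polyadenylation element (TTTTAT or TTTTAAT) in the same window, 3 of 10 beside 19.3% of tested genes.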

How the data were processed

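The analysis used 6 RNA-Seq libraries, 3 WT and 3 Lsm14b-KO, grouped by their titles and genotype labels. The authors aligned the reads to mm10 with TopHat2 (2.0.13) and deposited FPKM per gene computed with Cufflinks (2.2.1); raw counts were not used here. The deposited log2 fold changes, p-values and q-values are the authors' own Cuffdiff comparison and were not used. The labels name different library kits in different places, and strandedness and the annotation are not given in the sources used here.

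Values were put on the log2(FPKM + 1) scale. The 6398 genes that reached 1 FPKM in any library entered limma 3.58.1 under R 4.3.3 (lmFit, eBayes with an intensity trend, genotype as the only term), two-sided, with Benjamini-Hochberg adjustment over all 6398 genes and a threshold of 0.05. NDC80 subunit ratios were tested by exact permutation over libraries (scipy 1.17.1). Relative depth was estimated from the commonest ratio of the lowest FPKM values between libraries. The estimate also carries any scaling between libraries in the deposited values, and Cuffnorm is named among the authors' tools. Fits were tested on simulated data.

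Named genes were the 10 members, Lsm14b and, of 31 further genes, those past the threshold with the largest changes, or the most abundant gene of a list where none passed; Hjurp, Knl1, the untested genes and the marker genes with values were named outside this rule. Members and lists were chosen with earlier results of these data known. Coordinates, lengths and GC content were those of GENCODE vM21 on GRCm38, which mm10 equals, and near-identical transcripts from blastn 2.17.0. Alternatives changed the pseudocount, the minimum, the scaling, a length and GC correction (loess, span 0.5), the variance model and the replicate block, or left out a library.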

Additional observations from a re-analysis of the deposited data

How the results depend on the processing

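Under 16 alternatives to each of the 14 single genes tested beside Lsm14b, 194 of 224 fold changes kept their direction and their side of the threshold, 14 dropped below it, 9 passed it and 7 changed sign. Changing the minimum, the variance model or the replicate block leaves the fitted fold change as it was. In those alternatives the direction was fixed in advance and only the side of the threshold could move. The sign changes were Nuf2 (0.46 after TPM scaling, 0.23 after quantile normalization, 0.030 after the length and GC correction, and -0.38 to 0.039 without a library, the latter without Lsm14b-KO replicate 1), Dsn1 (0.31 after TPM scaling, 0.19 after quantile normalization) and Spc25 (0.023 after quantile normalization). Leaving out a library moved the members past the threshold from 2 to between 1 and 7, the other listed genes from 3 to between 1 and 13 (5 after TPM scaling, 6 after the length and GC correction), and all genes from 1383 to between 315 and 2898 (720 with no minimum). The highest counts came without Lsm14b-KO replicate 1, the lowest of all genes without Lsm14b-KO replicate 3; without WT replicates 1, 2 and 3 all genes numbered 396, 397 and 462, and without Lsm14b-KO replicate 2, 865. The share of called genes that were higher in Lsm14b-KO was 29.5% as reported, 63.2% after TPM scaling, 42.4% after quantile normalization, 45.1% after the length and GC correction, and 12.4% to 39.7% without a library. The median of the members was 0.14 after TPM scaling, 0.10 after quantile normalization and -0.26 after the length and GC correction, and that of the other listed genes was 0.75, 0.37 and 0.34, and 0.023 to 0.24 without a library. The difference in the log2 ratio of Spc25 to Spc24, -0.04 as reported, was 0.046 and 0.055 with pseudocounts of 0.1 and 0.01, 0.023 after the length and GC correction, and -0.24 to 0.17 without a library (0.11 without WT replicate 1, 0.17 without Lsm14b-KO replicate 2). The cause of these changes was not tested. Deviations of same-numbered WT and Lsm14b-KO libraries correlated at 0.19, -0.13 and 0.02, and those of differently numbered ones at -0.28 to 0.31. With 3 libraries a group, these values cannot settle whether the numbers pair the samples. With the replicate block the members past the threshold numbered 3, Mis12 being added (adjusted p = 0.0275 by limma), and all genes 1244. The table holds no counts, so the number of fragments behind each value is unknown and no counting interval can be given.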
